A study of Mus musculus with 4 samples.

Results

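Interferon-responding non-effector T cells were T cells from mouse tumors that carried transcripts of the interferon-induced genes Ifit1 and Ifit3 without high levels of Ccl5, the chemokine transcript that marked effector cells. A cell was taken as a member when it held at least 1 UMI (a tagged, individually counted transcript) over Cd3d, Cd3e and Cd3g, at least 1 UMI each of Ifit1 and Ifit3, fewer than 20 UMIs of Ccl5 and no Foxp3. In all, 615 cells met the rule, among 38860 cells called in 4 libraries. They were read beside 12366 comparison cells, which passed the same gates but held neither Ifit1 nor Ifit3. Both transcripts were read to choose the members, so the values of genes in members against comparison cells are given below as a description and were not tested.

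The T cells came from tumors formed by 105K, a Tsc2-deficient mouse kidney tumor cell line, injected subcutaneously into male C57BL/6J mice that were 6 weeks old and wild type. The tumor cells stably expressed either a control hairpin (sh-NC) or a hairpin against B7-H3, the immune checkpoint protein encoded by Cd276 (sh-B7-H3 (1)), so the question was how T cells differed when the checkpoint was reduced on the tumor. The hairpin acted in the tumor cells and the T cells themselves were of 1 genotype, so the knockdown could not be checked in sorted CD3+ cells. From each group 80 tumors were pooled, and RNA and 198 surface protein tags were measured in 2 libraries a group. The design text describes lanes of the same pooled cells, while a figure legend of the study speaks of independent samples. The design text was followed, so p-values are read as the spread between libraries of 1 pool and not between animals. The groups are called control and knockdown below.

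Type I interferons bind the receptor formed by IFNAR1 and IFNAR2, which acts through the kinases JAK1 and TYK2 on proteins of the STAT family. With IRF9 these form a complex that binds the interferon-stimulated response element (ISRE) in promoters and switches on a broad antiviral program. The IFIT proteins bind foreign RNA, ISG15 is conjugated to other proteins, and USP18 removes ISG15 and also restrains the receptor. In T cells the program can be set off by interferon made by other cells of a tumor or an infected tissue.

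The promoters of the genes that chose the cells and of 3 of the genes most raised in them are shown because they carry this element. The stretches are the 160 bases before the RefSeq start of each gene, in build GRCm38.p6, read on the strand of the gene. Capitals mark the core GAAANNGAAA or its other strand TTTCNNTTTC, with overlapping matches joined.
Ifit1, chr19:34640729-34640888, plus strand: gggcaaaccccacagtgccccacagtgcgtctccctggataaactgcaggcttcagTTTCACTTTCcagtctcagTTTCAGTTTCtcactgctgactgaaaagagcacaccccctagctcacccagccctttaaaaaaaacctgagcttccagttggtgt
Ifit3, chr19:34583369-34583528, plus strand: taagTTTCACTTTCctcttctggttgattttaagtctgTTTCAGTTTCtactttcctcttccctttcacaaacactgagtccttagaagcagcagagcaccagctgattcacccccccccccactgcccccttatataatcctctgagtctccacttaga
Isg15, chr4:156200819-156200978, minus strand: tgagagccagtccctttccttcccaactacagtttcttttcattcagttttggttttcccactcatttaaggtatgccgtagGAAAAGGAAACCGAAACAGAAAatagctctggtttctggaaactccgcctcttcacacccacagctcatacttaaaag
Rsad2, chr12:26456453-26456612, minus strand: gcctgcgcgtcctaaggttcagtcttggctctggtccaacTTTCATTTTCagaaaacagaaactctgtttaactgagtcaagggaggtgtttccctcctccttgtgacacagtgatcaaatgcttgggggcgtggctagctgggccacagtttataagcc
Slfn5, chr11:82951942-82952101, plus strand: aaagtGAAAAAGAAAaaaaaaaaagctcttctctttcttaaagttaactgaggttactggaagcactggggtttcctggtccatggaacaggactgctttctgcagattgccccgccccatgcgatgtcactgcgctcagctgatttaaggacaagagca
Ifit1 and Ifit3 held 2 matches each, Isg15 held 3 overlapping matches, and Rsad2 and Slfn5 held 1 each, the one of Slfn5 beside a run of A. Over the 250 bases before the start, the core was found in 978 of 32851 mouse promoters, or 2.98%. Among the 15 genes highest in members, 12 had a promoter entry and 6 of them (Cxcl10, Ifit3b, Isg15, Oas3, Rsad2 and Slfn5) held the core. Among the 10 lowest genes it was found in 0 of 9 with an entry. A match is a description of the letters and not a measurement of binding.

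The members carried T cell markers, with an admixture of cells that also carried myeloid transcripts, small in the control and larger in the knockdown. In knockdown library 1, 6 members held fewer than 3 UMIs over Cd3d, Cd3e and Cd3g, and 5 of them held 10 or more myeloid UMIs. The summed level of 8 T cell genes was 5924 and 5847 CPM (UMIs per 1000000 UMIs of the summed cells) in control members and 5529 and 5559 in knockdown members, against 5589 to 6080 in comparison cells. The summed level of 15 myeloid genes, such as Lyz2, C1qa and the MHC class II genes, was 455 and 861 CPM in control members and 22304 and 6373 in knockdown members. None of the 15 was at 0. Most of this signal lay in few cells: 6 and 7 control members and 10 and 8 knockdown members held 10 or more myeloid UMIs, which is 2.06% and 2.93% against 30.3% and 15.4%. In comparison cells the share was 1.14% and 1.41% against 4.52% and 4.48%. Without those cells the summed myeloid level in members was 19 and 24 against 101 and 78 CPM. The main results below are therefore also given without those cells, a choice made after the values were seen. Ncr1 of NK cells, Siglech of plasmacytoid dendritic cells, and Krt8, Sparc and the collagen genes Col1a1, Col1a2 and Col3a1 of tumor or stroma were at 0 in members of both groups. The other genes of these lists were not. The NK list summed to 187, 207, 218 and 238 CPM in members against 148 to 162 in comparison cells, most of it Klrd1, which T cells also carry. Of its 2 genes tested in members Eomes, also a T cell factor, was called higher in the knockdown (log2 fold change 1.65, and 1.78 without the myeloid cells). The plasmacytoid list summed to 569 to 867 CPM against 192 to 210, most of it the interferon-induced Bst2, and of its 3 genes tested Irf8 was called higher (2.60), though not without the myeloid cells (1.95, edgeR adjusted p = 0.071). The part of other cell types in these values was not tested.

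Libraries held 79224898 to 132820909 RNA UMIs. The median member held 8744 and 8867 UMIs in control and 7165 and 8071 in knockdown libraries, against 8133, 8668, 7008 and 7241.5 for comparison cells in the same order. Cells of the knockdown were thus shallower in both classes. Pairs of libraries shared 17 to 35 barcodes, and no member was among them. In barcodes too small to be called cells, which hold free RNA, Ifit1 stood at 35.8, 36.5, 36.2 and 46.6 CPM in control 1, control 2, knockdown 1 and knockdown 2, against 39.1, 37.2, 19.1 and 21.6 over all non-effector cells. Ifit3 of the rule stood at 29.7, 28.1, 24.4 and 32.1 CPM in free RNA against 25.4, 25.1, 20.7 and 13.8. Free RNA thus held about as much of both genes as the average non-effector cell in control, and more in the knockdown. Its part in cells with only 1 UMI of a gene was not tested, and the other interferon-induced transcripts of such cells are given below.

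Interferon-responding cells formed a smaller share of non-effector T cells in the knockdown than in the control. Members were 291 of 6266 non-effector cells in control library 1 (4.64%, with an exact 95% Clopper-Pearson interval from 4.14 to 5.19), while in control library 2 they were 239 of 5018 (4.76%, 4.19 to 5.39). They were 33 of 1564 in knockdown library 1 (2.11%, 1.46 to 2.95) and 52 of 2150 in knockdown library 2 (2.42%, 1.81 to 3.16). Both control libraries lay above both knockdown libraries, and the intervals, which cover counting error only, did not meet. The means were 4.70% ± 0.0840 (SD, n = 2) and 2.26% ± 0.218 (SD, n = 2), a 2.08-fold difference. With 2 libraries a side the exact two-sided permutation test gave p = 0.333, which is the smallest value it can give.

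Because knockdown cells were shallower, every cell was also thinned to 2000 UMIs before Ifit1 and Ifit3 were read, which left out 28 and 23 control and 128 and 175 knockdown cells. The shares were then 1.37% and 1.34% against 0.875% and 0.543% in knockdown libraries, still without overlap and 1.91-fold apart. Without cells of 10 or more myeloid UMIs the unthinned shares were 4.61% and 4.70% against 1.56% and 2.16%, a 2.50-fold difference. Cells marked by a doublet caller made up 39.5%, 42.3%, 30.3% and 25.0% of members and 34.3%, 33.0%, 14.4% and 14.0% of comparison cells, and without them the log2 ratio of the shares was -1.15, beside -1.06 with them. Cells with only 1 of the 2 transcripts followed the same order, at 14.3% and 14.7% of control against 10.2% and 10.4% of knockdown non-effector cells. If Ifit1 and Ifit3 fell on cells independently, both would be met in 1.36% and 1.42% of control and 0.519% and 0.560% of knockdown non-effector cells. The measured shares were above that product in all 4 libraries. Depth differed between cells and was not held equal here, so the excess is not read as a joint response of the 2 genes.

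**Figure D1:**
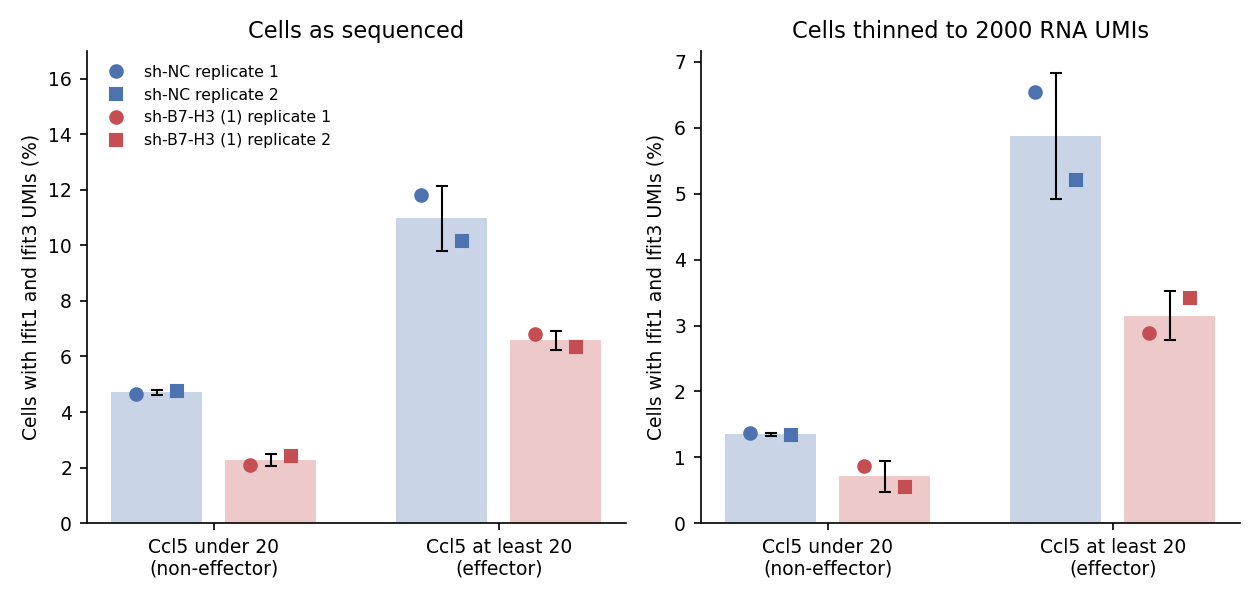
Percent of CD3+ Foxp3-negative cells with UMIs of both Ifit1 and Ifit3, as sequenced (left) and after thinning each cell to 2000 UMIs (right), for cells with Ccl5 under 20 UMIs and with 20 or more. Bars are means of 2 libraries, error bars are SD and points are libraries. Among cells with low Ccl5 the control stands at 4.64% and 4.76% and the knockdown at 2.11% and 2.42%.

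Effector cells, those with 20 or more Ccl5 UMIs, carried both transcripts in 11.8% and 10.2% of control and 6.81% and 6.34% of knockdown cells, a 1.67-fold difference. The log2 ratio of the non-effector to the effector share was lower in the knockdown by 0.322, with p = 0.333 in the exact permutation test, the smallest value possible, and the groups did not overlap. Without cells of 10 or more myeloid UMIs the ratios were -1.32 and -1.11 against -2.13 and -1.55, a difference of -0.621, again without overlap. After thinning all cells the ratios of the groups overlapped (difference -0.0764, exact permutation p = 1). Whether the share fell more in non-effector than in effector cells cannot be settled with 2 libraries a side.

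The members carried the interferon program far beyond the 2 genes that chose them. Of the 5 marker genes, Ifit1 chose the cells, and the other 4 were higher in members in every library. Isg15 (ENSMUSG00000035692, GRCm38 chr4:156199424-156200818, minus strand), the ubiquitin-like modifier, stood at 719.5, 648.6, 1008 and 688.3 CPM in members of control 1, control 2, knockdown 1 and knockdown 2, and at 38.96, 39.04, 35.83 and 30.06 in comparison cells. The log2 ratio was 4.32 ± 0.33 (SD over 4 libraries, each level raised by 2 CPM). Free RNA held 70.9, 73.4, 67.7 and 82.6 CPM of Isg15, above comparison cells and below members in each library. At least 1 UMI was found in 76.9% to 90.9% of members and in 15.2% to 22.5% of comparison cells, and the latter share is not read as expression. Members carried 31.5% to 40.9% of all Isg15 UMIs of non-effector cells.

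Usp18 (chr6:121245906-121270917), which removes ISG15 and restrains the receptor, stood at 115.8, 123.6, 96.78 and 114.3 CPM in members against 7.647 to 10.34 in comparison cells (log2 ratio 3.40 ± 0.12). Rtp4 (chr16:23520291-23614222), a chaperone of certain receptors that interferon induces, stood at 189.3, 191.3, 217.8 and 180.7 against 23.26 to 31.59 (2.75 ± 0.28). Slfn5 (chr11:82951349-82964840), of the Schlafen family of interferon-induced growth regulators, stood at 241.2, 243.7, 197.6 and 203.5 against 36.04 to 36.89 (2.53 ± 0.15). For Usp18 and Slfn5 the knockdown members lay just below the control members and for Rtp4 the groups overlapped, while no library of members overlapped one of comparison cells. Slfn5 was the one of the 4 that stood lower in effector cells with both transcripts, at 60.8, 101, 42.9 and 83.2 CPM, which is near its 55.9 to 66.6 in non-effector cells with only 1 of the 2 transcripts.

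**Figure D2:**
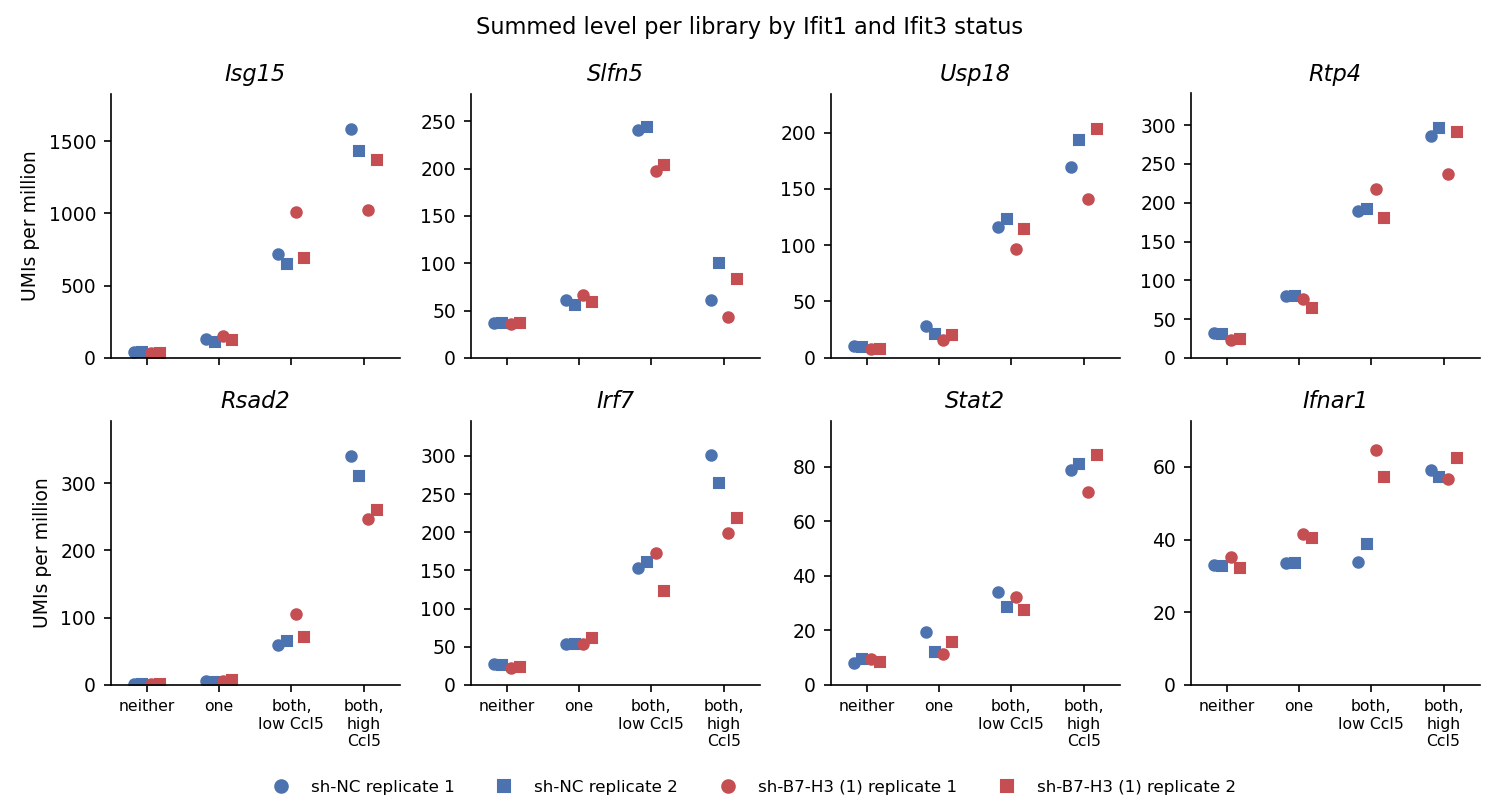
CPM of 8 interferon-related genes in non-effector cells with neither, 1 or both of Ifit1 and Ifit3 and in effector cells with both, each point a library. Isg15, Usp18, Rtp4, Rsad2 and Irf7 rise from neither to both, Slfn5 is highest in non-effector cells with both, and Ifnar1 stands higher mainly in knockdown cells with both, with a mean log2 ratio of 0.47 in members.

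Across all 7545 genes tested, 710 (9.41%) were higher in members than in comparison cells in all 4 libraries and 722 (9.57%) were lower, with a median log2 ratio of -0.01. No test is read from these counts, since the cells were chosen by 2 of the same transcripts. Of 19 IFIT and antiviral effector genes besides Ifit1 and Ifit3, all 19 were higher in every library, with a median log2 ratio of 2.42. Rsad2 (chr12:26442746-26456452), the antiviral enzyme viperin, stood at 59.0, 65.95, 104.8 and 70.89 CPM in members against 0.597, 0.981, 1.05 and 0.735 in comparison cells. It was met in 21.2% to 27.6% of members and in 0.492% to 0.569% of comparison cells, and members held 55.4% to 70.9% of its non-effector UMIs. Its neighbor in function Cmpk2, a nucleotide kinase, had a log2 ratio of 3.70 ± 0.76, the 2'-5' oligoadenylate synthetase family members Oasl2 and Oas3 had 3.36 ± 0.56 and 2.96 ± 0.60, and the exonuclease Isg20 had 2.87 ± 0.26. The remaining genes of the 15 highest were Ifit3b at 4.47 ± 1.08, Xaf1 at 2.28 ± 0.18, and Cxcl10 and Ifitm3, described further below, at 4.48 ± 1.89 and 3.32 ± 0.78. Bst2, the tetherin that holds viruses at the cell surface, stood at 501.8 to 701.7 against 135.3 to 152.6 CPM (1.95 ± 0.29).

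The remaining groups of interferon genes were higher to differing degrees. All 5 genes of ISG15 conjugation (median log2 ratio 1.94), all 4 RNA sensors (2.03), all 9 PARP and TRIM genes (1.72) and all 7 genes of the p200 family of DNA sensors (1.69) were higher in every library. So were 15 of 16 interferon-inducible GTPases and their regulator Irf1 (median 1.19), where Iigp1, which acts on the membranes around intracellular parasites, had 2.24 ± 0.21 and Irf1, the exception, 0.22 ± 0.36. Of 14 genes of MHC class I presentation, 13 were higher in every library but with a median of only 0.45.

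Within the signaling chain the factors at its end stood further from comparison cells than the receptor and kinases. Stat2, the partner of IRF9, stood at 34.1, 28.4, 32.3 and 27.4 CPM in members against 8.04, 9.32, 9.53 and 8.30 in comparison cells (log2 ratio 1.59 ± 0.18), without overlap between the classes. Irf9 had a ratio of 0.95 ± 0.10 and Irf7, which drives interferon genes, of 2.52 ± 0.23. The receptor genes Ifnar1 and Ifnar2 had 0.47 ± 0.40 and 0.28 ± 0.73, and the kinases Jak1 and Tyk2 0.09 ± 0.14 and 0.63 ± 0.44, spreads that reach close to or across 0. The feedback inhibitor Socs1 had 0.97 ± 0.33 and Socs3, which is tied to other cytokines, -0.07 ± 0.28. In all, 7 of these 10 genes were higher in every library (median 0.79). Of the interferon ligands, Ifna1, Ifna2, Ifna4 and Ifnk were at 0 in members, and Ifnb1 was found in 1 member of each control library, both of them cells with 10 or more myeloid UMIs. Ifng, the type II interferon, stood at 13.7 and 5.24 CPM in control and 24.2 and 16.0 in knockdown members, where 1 cell held all 37 UMIs of control library 1 (log2 fold change 0.89, edgeR adjusted p = 0.574). In comparison cells Ifng was called higher in the knockdown, with a log2 fold change of 1.88.

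The strength of the response varied over a wide range from cell to cell. Over 24 interferon-induced genes that took no part in the rule, the median member held 32, 34, 43 and 30.5 UMIs in control 1, control 2, knockdown 1 and knockdown 2. Cells with 1 of the 2 transcripts held a median of 11, 12, 10 and 9, and comparison cells 6, 7, 5 and 5. The classes were thus ordered alike in all 4 libraries, while single cells overlapped: members ranged from 2 to 189 such UMIs. As summed levels this was 4220, 3940, 6674 and 4862 CPM in members, 1620, 1521, 1837 and 1683 in cells with 1 transcript, and 927, 920, 961 and 942 in comparison cells. Effector cells with both transcripts stood higher than members in every library, at 10032, 9079, 8164 and 9470.

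**Figure D3:**
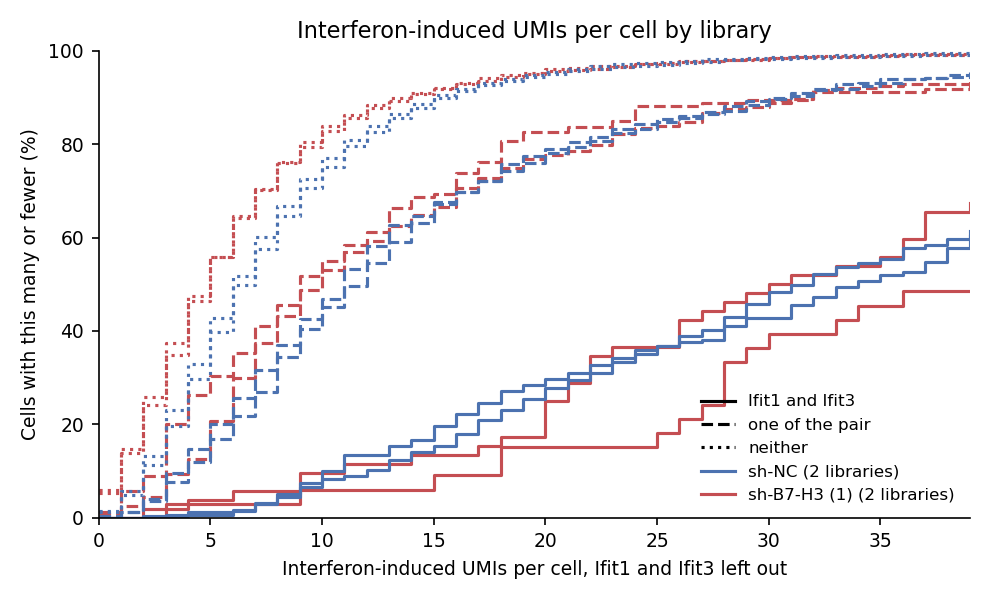
Cumulative percent of non-effector cells against the number of interferon-induced UMIs per cell, over 24 genes that leave out Ifit1 and Ifit3. Solid lines are cells with both transcripts, dashed lines with 1, dotted lines with neither, blue for control and red for knockdown libraries. The lines of cells with both lie to the right of the others in all 4 libraries and approach 100% late.

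The members just inside and outside the limits of the rule can be set side by side. Cells at the lowest limit, with 1 UMI each of Ifit1 and Ifit3, numbered 54, 50, 6 and 12, and their summed level of the 24 genes was 2085, 2039, 4519 and 3247 CPM, above the cells with only 1 of the transcripts. The median member held 2 or 3 Ifit1 UMIs, with up to 36 in 1 cell. Near the limit of Ccl5, 0, 4, 2 and 2 members held 15 to 19 UMIs, and the summed interferon level of those present was 8781, 3399 and 4040. Effector cells with 20 to 24 Ccl5 UMIs numbered 3, 7, 1 and 3, with 15712, 7617, 9097 and 7194. Ccl5 was absent from 81.4% and 76.2% of control members but only from 24.2% and 21.2% of knockdown members, and much the same split held for comparison cells, at 83.3% and 79.2% against 31.3% and 25.5%. Free RNA held Ccl5 at 1212, 1417, 4279 and 4741 CPM in the same order, and its part in this was not tested.

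By lineage most members that could be called were CD8 cells. A CD8 cell held at least 3 UMIs over Cd8a and Cd8b1 and no Cd4. A CD4 cell held at least 1 Cd4 UMI and neither Cd8a nor Cd8b1. Of 615 members 305 were called CD8 and 130 CD4, and the rest were not called. The limits of the lineages differ, and their part in the CD8 share was not tested. Among members that could be called by Cd4 or by Cd8a and Cd8b1, CD8 cells were 142 of 212 (67.0%) and 127 of 172 (73.8%) for control and 9 of 16 (56.3%) and 27 of 35 (77.1%) for knockdown libraries. In comparison cells the CD8 share was 61.5%, 62.2%, 53.9% and 57.7%. Members were higher in 4 of 4 libraries, by 9.74 ± 7.55 percentage points (SD, n = 4), and the exact two-sided sign-flip test gave p = 0.125, the smallest it allows. Between groups the members' share differed by -3.71 points (exact permutation p = 1), within the spread of the knockdown libraries. Without the cells of 10 or more myeloid UMIs this difference was 3.78 points, so it had no stable direction. Members lay above comparison cells in 4 of 4 libraries without those cells (by 13.2 ± 10.7 points), but not under every setting. Thinned to 2000 UMIs a cell they were higher in 2 of 4, with 58.8% against 63.2% in control library 1 and 55.6% against 59.1% in knockdown library 2. With Ccl5 under 5 UMIs they were higher in 3 of 4, with 4 of 10 members against 53.9% of comparison cells in knockdown library 1. A CD8 lean of members over comparison cells was thus not stable to these choices. With all members kept, CD4 members had the higher summed interferon level in every library, at 5814, 5628, 7958 and 7367 CPM against 3268, 3361, 6369 and 3539 in CD8 members. By the median of UMIs per cell the order turned in knockdown library 1, at 48 in CD4 against 54 in CD8 members. It was kept in the other libraries. Without the cells of 10 or more myeloid UMIs the CD4 members of the knockdown libraries numbered 5 and 4 in place of 7 and 8. Members with 10 or more myeloid UMIs stood at 4279, 3629, 5787 and 8026 CPM, and their part in this order was not tested.

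The summed level of 10 naive and homing genes was 3109 and 3131 CPM in control members against 3215 and 3225 in comparison cells. It was 1661 and 2154 against 2633 and 2569 in the knockdown, so the gap lay mainly in the knockdown. Without the cells of 10 or more myeloid UMIs the knockdown values were 1787 and 2369 against 2682 and 2605, a narrower gap in library 2. None of the 10, among them Ccr7, Lef1 and Tcf7, was higher in every library and 3 were lower (median log2 ratio -0.29). The lowest genes by the fixed rule included Izumo1r, the folate receptor of regulatory and helper cells, at -1.29 ± 0.84, Id3, an inhibitor of E protein transcription factors, at -0.51 ± 0.11, and Gpr183, which guides migration in lymphoid tissue, at -0.31 ± 0.06. The others were Tesc, Igfbp4, Atp1b1, Mphosph8, 2310009A05Rik and the globin genes Hbb-bs and Hba-a1. The globin ratios rested on comparison cells of control library 2 and knockdown library 1, where Hbb-bs stood at 254 and 1031 CPM against 5.54 and 1.76 in the other libraries. In the Ly6 family, Ly6a had a ratio of 1.62 ± 0.54, Ly6c2 of 1.25 ± 0.69 and Ly6e of 0.62 ± 0.26.

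At the surface, tested because no tag took part in the rule, no difference of members from comparison cells was called. Of 197 tags, 0 (0%) had a Benjamini-Hochberg adjusted p under 0.05 in edgeR's quasi-likelihood test, and 19 had an unadjusted p under 0.05. With cells of over 3000 detected genes kept, 77 tags were called. The BST2 tag stood at 1305, 1150, 1739 and 1616 tag CPM in members and at 1305, 1294, 1704 and 1659 in comparison cells, so the classes overlapped (log2 fold change 0.15, edgeR adjusted p = 0.459), whereas the Bst2 transcript did not overlap. The Sca-1 tag, the product of Ly6a, had a log2 fold change of 0.26 (edgeR adjusted p = 0.477) and Ly-6C one of 0.39 (edgeR adjusted p = 0.459). The CD8b tag differed by 0.34, CD8a by 0.08 and CD4 by 0.29, and CD44 and CD69 by at most 0.08 in size, none of them called. CD38 differed by more, with a log2 fold change of 0.86 (edgeR adjusted p = 0.459), also not called. Its log2 ratios of members to comparison cells were -0.04 and 0.45 in control and 1.13 and 1.09 in knockdown libraries.

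Within the members, few genes of the interferon lists passed the test between knockdown and control. Members of both groups were chosen by at least 1 UMI each of Ifit1 and Ifit3, which interferon induces as it does these lists. The rule thus narrows the room for a group difference in them. Knockdown cells were also shallower, so 1 UMI stood for a higher level there. The small number of calls is therefore not read as an equal response. Of 7545 genes fitted, 201 (2.66%) passed the call in edgeR's quasi-likelihood test (Benjamini-Hochberg adjusted p under 0.05, change of at least 2-fold). In the knockdown 179 of them (2.37% of genes tested) rose and 22 fell. None of 19 IFIT and antiviral genes besides Ifit1 and Ifit3 of the rule, 5 of ISG15 conjugation, 4 RNA sensors, 10 receptor and signaling genes, 5 Schlafen genes, 9 PARP and TRIM genes, 16 GTPases or 14 MHC class I genes was among them. Their median log2 fold changes lay between -0.34 for the Schlafen genes and 0.39 for ISG15 conjugation, beside -0.02 over all genes. The log2 fold change of Isg15 was 0.20 ± 0.16 (SE; edgeR adjusted p = 0.643), that of Slfn5 was -0.34 ± 0.15 (adjusted p = 0.300), of Usp18 -0.22 ± 0.18 (adjusted p = 0.665) and of Rtp4 -0.04 ± 0.15 (adjusted p = 0.961). Of 7 genes of the p200 family Ifi204 was called, and Ifitm3 and Cxcl10, which interferon also induces but which are on none of these lists, are described below. Ifi204 stood at 5.57 and 9.17 against 125 and 22.9 CPM and was too low to be tested without the myeloid cells.

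Over all non-effector cells together, whatever their Ifit1 and Ifit3, the marker genes were lower in the knockdown. In that fit 20.8% of 12604 genes had an adjusted p under 0.05, and 4.83% also changed at least 2-fold. All 5 markers had an adjusted p under 0.05 by edgeR with log2 fold changes short of 2-fold: Ifit1 -0.88 (adjusted p = 3.9e-05), Usp18 -0.59, Rtp4 -0.45, Isg15 -0.34 (adjusted p = 0.0178) and Slfn5 -0.18 (adjusted p = 0.0217). Ifit3 stood at -0.58. Ifit1 and Ifit3 also set the share of members, so their fall is not a result separate from that share. By the call rule used within members, which adds a 2-fold change, 0 of 16 GTPases were called in this fit. The same held for 0 of 19 IFIT and antiviral genes besides Ifit1 and Ifit3. At an adjusted p under 0.05 alone, 13 of 16 GTPases were lower, where 10% of all genes were. By that measure 0 of 16 were lower within members, a fit on far fewer cells. The other lists were mixed by the same measure. Of 19 IFIT and antiviral genes besides Ifit1 and Ifit3, 6 were lower and 2 higher. For ISG15 conjugation it was 2 and 2, and for MHC class I 1 lower and 4 higher. Of PARP and TRIM genes 5 of 9 and of receptor and signaling genes 6 of 10 were lower. The median over all genes was 0.01. A sum over cells does not tell fewer responding cells from fewer transcripts in each, and for the members both the share and the levels within them are given above. Both of these rest on the UMI limits of the rule, so they do not settle the question either. In comparison cells, which held neither transcript, 11 of 16 GTPases were lower at that adjusted p as well (median -0.26), where 1035 of 12269 genes were.

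**Figure D4:**
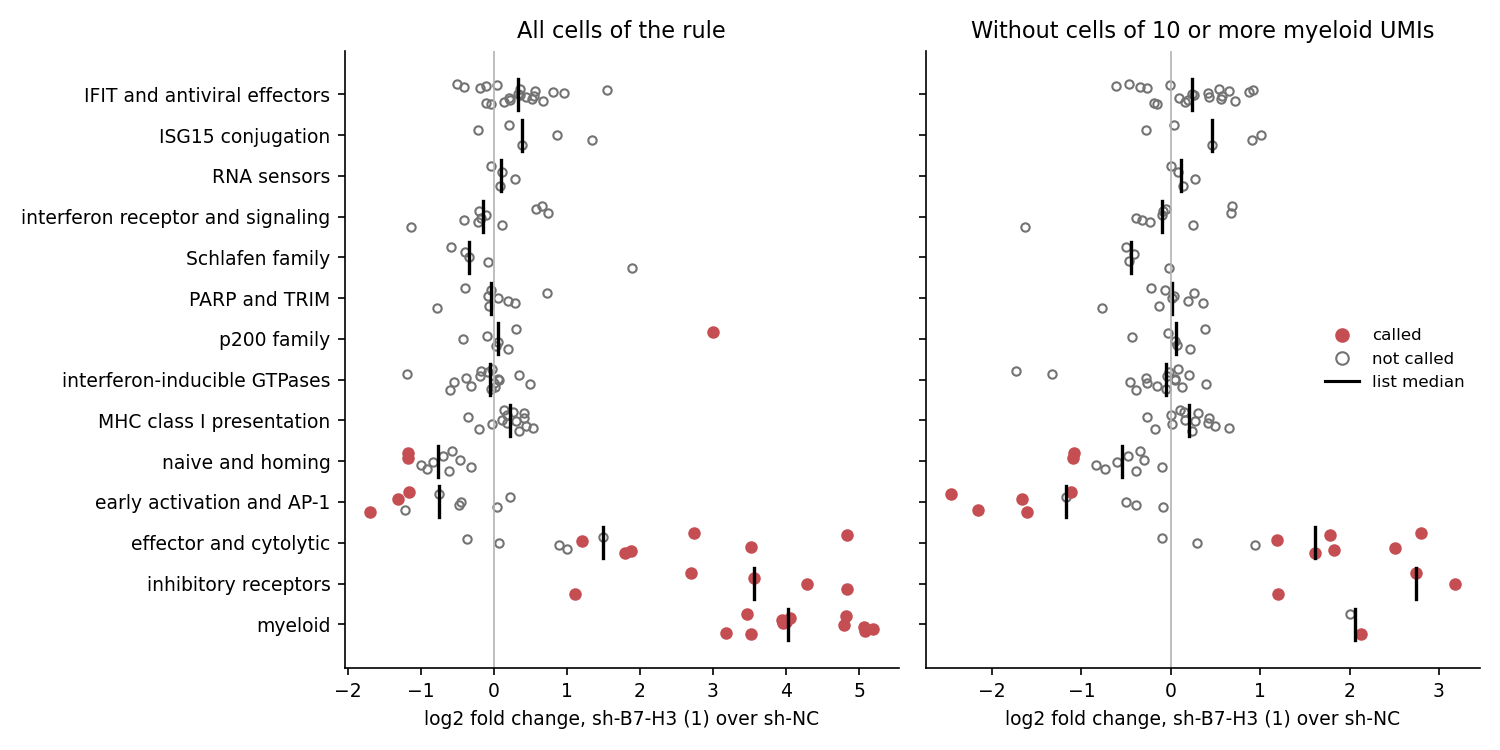
Log2 fold change, knockdown over control, of each gene of the lists in members, for all members (left) and without cells of 10 or more myeloid UMIs (right). Red points were called, open points were not, and bars are medians. The interferon lists lie around 0, the effector and inhibitory receptor lists above it, and the early activation list below it in both panels, while the myeloid list loses most of its genes on the right.

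Most of the calls within the members lay outside the interferon lists. The myeloid genes were the plainest part: 12 of 12 tested were called higher with all members in the fit (median log2 fold change 4.03), with the MHC class II genes H2-Ab1 at 5.20, H2-Eb1 at 5.09, H2-Aa at 5.07 and Cd74 at 4.79. Outside that list the lysosomal protease gene Ctsh stood at 4.27 and the chemokines Ccl8 and Cxcl9 at 9.13 and 6.81. Ccl8 was found in 0 and 1 control and 5 and 5 knockdown members. Without the cells of 10 or more myeloid UMIs, 79 of 7231 genes (1.09%) were called, 61 higher (0.844%) and 18 lower (0.249%), and 67 of them were among the 201. Leaving out control library 1 or 2 took the 201 calls to 106 and 112, and leaving out control 1, control 2, knockdown 1 or knockdown 2 took the 79 to 30, 33, 18 and 41. Ifitm3, an interferon-induced membrane protein that blocks viral entry, was called with all members, at 34.1 and 43.2 against 230 and 341 CPM. Without those cells its log2 fold change was 0.81 (edgeR adjusted p = 0.395). The values that follow are without them.

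Several genes of effector T cells rose in the knockdown members and also stood higher in free RNA of the knockdown. Without the cells of 10 or more myeloid UMIs, and with Ccl5 of the rule left out, 8 effector and cytolytic genes were tested and 5 were called higher (median log2 fold change 1.40), namely Gzmb, Nkg7, Ccl4, Cxcr6 and Il2rb. Gzmb and Ccl4 were not called with all members in the fit. Gzmb stood at 15.2 and 11.3 CPM in control against 123 and 8.08 in knockdown members, so the groups overlapped, and 1 cell held 19 of the 23 Gzmb UMIs of knockdown library 1. Of the 8 genes of the inhibitory receptor list 5 were too low to be tested, and the others, Pdcd1, Lag3 and the transcription factor Tox, were called higher. Pdcd1 and Lag3 were low in control and high in knockdown members, so a filter on low counts passes such genes through the knockdown, and nothing is read from their number. Lag3 rested on 5 and 5 control and 5 and 6 knockdown UMIs, and Tox lost its call in 15 of 21 alternatives, with log2 fold changes from 0.54 to 1.63. Cxcr6, the chemokine receptor of tissue-resident T cells, stood at 55.5 and 67.9 in control against 229 and 218 CPM in knockdown members (log2 fold change 1.83 ± 0.18, edgeR adjusted p = 9.43e-11). Nkg7, a granule protein of cytolytic cells, stood at 327 and 334 against 731 and 786 (1.18 ± 0.11, edgeR adjusted p = 1.98e-12). Pdcd1, which encodes PD-1, stood at 3.80 and 10.9 against 74.7 and 35.0, a log2 fold change of 2.75. The groups did not overlap in any of the 3, which for Cxcr6 was also a condition of the ranking. Free RNA held these transcripts too, with a step in the same direction, Nkg7 at 538 and 557 against 1389 and 1381 CPM, Cxcr6 at 102 and 107 against 302 and 308, and Pdcd1 at 31.5 and 30.8 against 95.6 and 103. In each library these levels lay above those in members, and the part of free RNA in the members' rise was not tested. Ccl5 itself, held under 20 UMIs by the rule, averaged 0.536 and 0.770 UMIs in control and 3.88 and 3.87 in knockdown members, so members of the knockdown lay nearer to the effector limit. Among members with fewer than 5 Ccl5 UMIs the log2 fold change of Nkg7 was 0.31 and no longer called, while Cxcr6 was still called.

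The calcium-binding proteins S100a6 and S100a4, which are high in memory and migrating T cells, had some of the largest changes. S100a6 (chr3:90612882-90624181) stood at 23.96 and 11.31 in control and 528 and 277.2 CPM in knockdown members (log2 fold change 4.31 ± 0.23, edgeR adjusted p = 2.25e-21). S100a4 (chr3:90603771-90606045) stood at 13.31 and 16.29 against 293.3 and 253 (4.15 ± 0.22, edgeR adjusted p = 2.17e-21). S100a6 was found in 17 of 285 and 14 of 232 control members and in 12 of 23 and 15 of 44 knockdown members. In knockdown library 1, 1 cell gave 36 of the 99 UMIs. The summed myeloid level left in these members was 101 and 78 against 19 and 24 CPM, and its part in these values was not tested. In comparison cells S100a6 stood at 54.4 and 59.61 against 180.7 and 181 CPM, so the control members lay below the control comparison cells and the knockdown members above theirs.

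Other genes of the fixed ranking rose by smaller steps. Itgb1, the integrin beta 1 chain, stood at 28.5 and 29.0 in control against 251 and 61.9 CPM in knockdown members (log2 fold change 2.12 ± 0.31, edgeR adjusted p = 2.67e-06), and its call was lost in 4 of 21 alternatives. Ahnak, a large scaffold protein, stood at 19.4 and 20.8 against 107 and 83.4 (2.16). Lars2, the mitochondrial leucyl-tRNA synthetase, stood at 117 and 140 against 496 and 493 (1.92 ± 0.13, edgeR adjusted p = 2.95e-17) and was called in 21 of 21 alternatives. The ranking took only genes without overlap between the groups, so the lack of overlap in these is not a result. Ctla2a, a cysteine protease inhibitor, had a log2 fold change of 1.80 and Rbpj, the DNA-binding partner of Notch, of 1.64. In comparison cells, also without those of 10 or more myeloid UMIs, the log2 fold change was 2.17 for Lars2, 1.32 for Ctla2a, 0.99 for Rbpj, 0.98 for Ahnak and 0.27 for Itgb1, and of these 5 genes Itgb1 and Ahnak had a called difference of effects (1.77 for Itgb1, edgeR adjusted p = 2.81e-09, and for Ahnak an adjusted p of 0.0486).

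The chemokine genes Xcl1 and Cxcl10 rose as well, and for each gene 1 cell held most UMIs of 1 knockdown library. Xcl1, which draws cross-presenting dendritic cells, stood at 15.97 and 12.22 against 352 and 368.8 CPM (log2 fold change 4.63 ± 0.20, edgeR adjusted p = 9.2e-25). It was found in 5 of 285 and 7 of 232 control and 8 of 23 and 10 of 44 knockdown members. In knockdown library 2, 1 cell held 96 of the 137 UMIs. Cxcl10, an interferon-induced chemokine that draws CXCR3-bearing T cells, stood at 22.44 and 49.33 against 282.7 and 110.4 (2.26 ± 0.28, edgeR adjusted p = 7.98e-08). It was found in 15 of 285 and 19 of 232 control and in 3 of 23 and 2 of 44 knockdown members. The share of members with it thus overlapped between the groups. In knockdown library 1, 1 cell held 41 of the 53 UMIs. The call for Cxcl10 was lost without that library, and the one for Xcl1 was kept without any 1 of the 4.

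The genes that fell included some of naive cells and of early activation. Tcf7, the transcription factor of naive and stem-like T cells, stood at 315.3 and 321.8 in control and 117.3 and 169.6 CPM in knockdown members (log2 fold change -1.10 ± 0.16, edgeR adjusted p = 4.38e-06). Ccr7, the homing receptor for lymph nodes, stood at 181.8 and 167.5 against 85.33 and 83.44 (-1.08 ± 0.20, edgeR adjusted p = 0.000408). These were the 2 called of 10 naive and homing genes, whose median was -0.54. Both lost the call without knockdown library 1, and Ccr7 also without knockdown library 2. In all, Tcf7 lost it in 6 and Ccr7 in 8 of 21 alternatives. In comparison cells, also without those of 10 or more myeloid UMIs, 8 of the 10 genes were lower at an adjusted p under 0.05. Over all genes of that fit 898 of 12070 were. The 8 stayed short of 2-fold (median of the 10 genes -0.24). The difference of effects, members minus comparison cells, was -0.81 for Tcf7 and -0.89 for Ccr7 (edgeR adjusted p = 0.00343 and 0.0271), short of the 2-fold that a call needs.

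Of 9 early activation genes tested 5 were called lower (median log2 fold change -1.17), among them the AP-1 subunits Jun and Fos. With all members in the fit 3 of 9 were called (median -0.75), and Fos was not (-0.75, edgeR adjusted p = 0.347). In comparison cells without those of 10 or more myeloid UMIs 6 of 10 were lower at an adjusted p under 0.05 (median -0.45). Over all genes of that fit 898 of 12070 were lower. Fos was called there (-1.04). Jun stood at 301.6 and 331.8 against 69.33 and 118.4 CPM (-1.66 ± 0.18, edgeR adjusted p = 1.98e-09). Cd69, a retention and activation marker, stood at 245.7 and 242.1 against 85.33 and 129.2, and Tsc22d3, which glucocorticoids induce, at 181.4 and 184.7 against 64 and 59.22. Pik3ip1, an inhibitor of PI3 kinase, had a log2 fold change of -1.09 and Bod1l of -1.08, calls lost in 12 and 15 of 21 alternatives. Ppp1r15a, a stress-induced phosphatase subunit, was called with all members (-1.19) but not without the myeloid cells (-0.92, edgeR adjusted p = 0.136), likewise Pdlim1 (-1.32 and -1.05) and Rflnb (-1.22 and -0.95). In Jun, Cd69 and Tsc22d3 the control libraries agreed closely. That they lay above both knockdown libraries was a condition of the ranking. Ly6c1, of the surface proteins of memory CD8 cells, stood at 144.5 and 111.3 against 10.67 and 43.07 (-2.03 ± 0.32, edgeR adjusted p = 1.19e-05), while its neighbor Ly6c2 stood at 266.6 and 292.4 against 522.7 and 533. The 2 genes are near-identical copies, so reads may be shared between them and their separate values are uncertain.

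**Figure D5:**
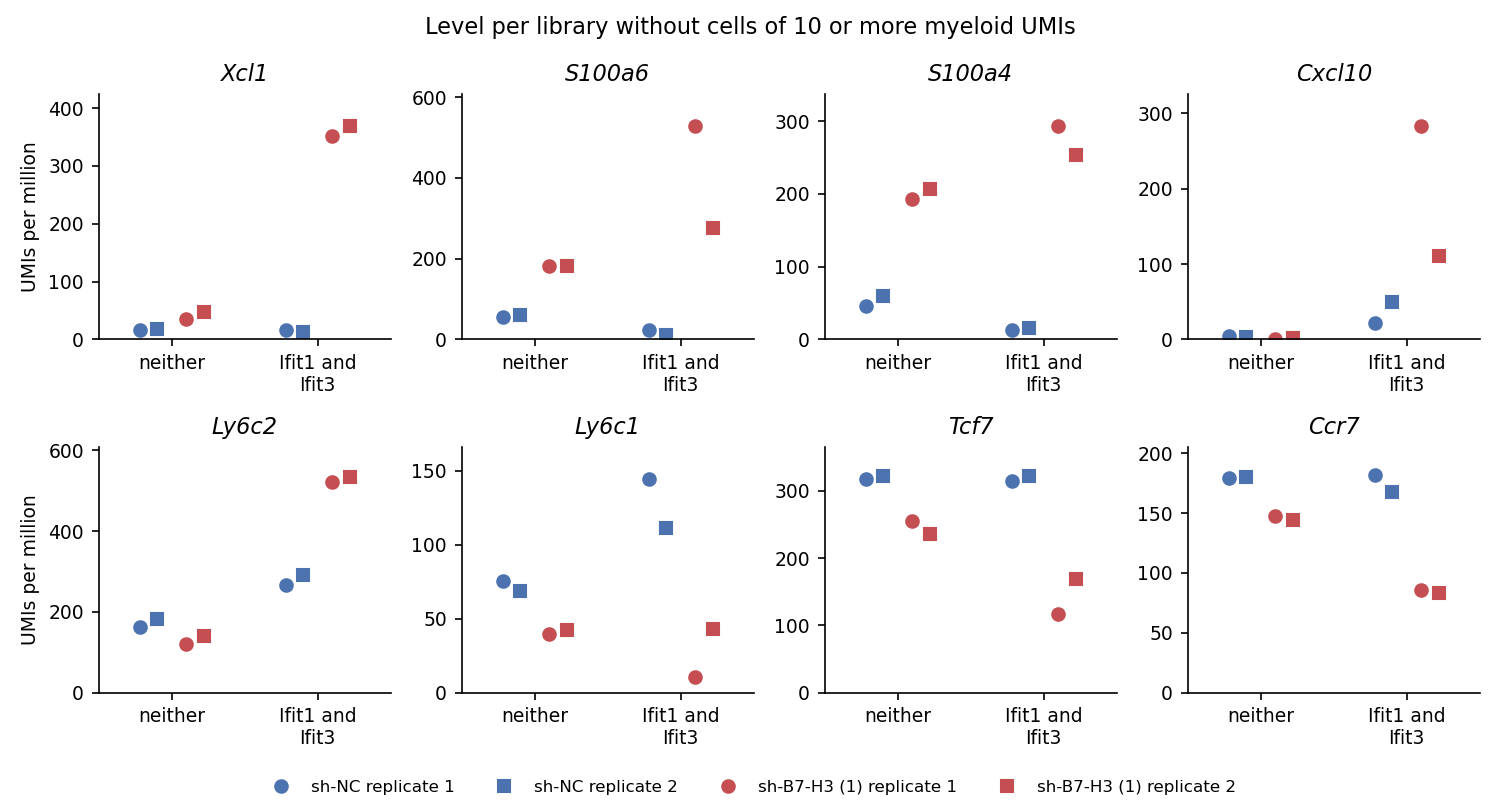
CPM of 8 genes in comparison cells (neither transcript) and in members (Ifit1 and Ifit3), without cells of 10 or more myeloid UMIs, each point a library. Xcl1, S100a6, S100a4 and Cxcl10 stand higher and Ly6c1, Tcf7 and Ccr7 lower in knockdown members, and for Xcl1 and S100a6 the step between groups is larger in members than in comparison cells.

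Whether the knockdown acted differently on members and on comparison cells was tested in 1 fit of both classes. With all cells, 78 of 10697 genes (0.729%) were called, and without the cells of 10 or more myeloid UMIs 19 of 10395 (0.183%). Among the latter the log2 effect in members exceeded that in comparison cells by 3.18 for Xcl1, 2.52 for S100a6 and 2.10 for S100a4, and the difference was -1.34 for Ly6c1 (edgeR adjusted p = 0.0155). Leaving out 1 library moved the count with all cells to between 24 and 149. In comparison cells themselves, 511 of 12269 genes (4.16%) were called with all cells. There 4.08% of genes were called higher. Of the effector list without Ccl5, 6 of 11 genes and of the inhibitory receptors 6 of 8 were called higher in these cells without Ifit1 or Ifit3. Free RNA of the knockdown also held more of such transcripts, among them Nkg7 and Pdcd1 as given above, and its part here was not tested.

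The surface tags of members were tested between the groups in the same way. Of 197 tags 13 (6.6%) were called between the groups by edgeR, 5 higher (2.54%) and 8 lower in the knockdown, a split that was 6 and 5 with isotype control scaling and 27 and 2 with scaling to all tag counts, which moved the median tag from 0.00 to 0.51 on the log2 scale. Only the 5 higher tags were called under all 3 scalings, so the lower ones are not described. CD38, an ectoenzyme of activated and exhausted T cells, stood at 5768 and 7588 in control and 35947 and 34200 tag CPM in knockdown members (log2 fold change 1.87 ± 0.25, edgeR adjusted p = 0.011). CD39, an ectonucleotidase of exhausted cells, stood at 5400 and 6182 against 24390 and 20238 (1.43 ± 0.22, edgeR adjusted p = 0.0134). Neither overlapped between groups. CD38 was called under all 10 alternatives, with 1.76 without the cells of 10 or more myeloid UMIs. CD39 was 1.01 without those cells and 0.99, no longer called, when tag counts were also limited per cell, and its call was lost with the replicate block. In comparison cells CD38 stood at 5945 and 5558 against 16461 and 16110 and CD39 at 5790 and 5702 against 13969 and 13272 tag CPM, a step in the same direction. The CD69 tag stood at 3309 and 2770 against 4521 and 4583 (log2 fold change 0.08, edgeR adjusted p = 0.362), whereas the Cd69 transcript was called lower.

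CD11b, an integrin of myeloid cells, was called at 1.67 with all members and was at 0.67, not called, without the cells of 10 or more myeloid UMIs. CD22, a B cell receptor, stood at 183 and 199 against 625 and 687 and CCR8, a receptor of tumor regulatory cells, at 217 and 198 against 664 and 574 tag CPM. In comparison cells CD22 stood at 220 and 223 against 784 and 785 and CCR8 at 235 and 345 against 639 and 707, again in the same direction as in members.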

How the data were processed

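CD3+ T cells sorted from tumors were profiled with the 10x Genomics 3' kit and 198 antibody tags, in 2 sh-NC and 2 sh-B7-H3 (1) libraries. Per the series' design text these are lanes of 1 pool for each group. The authors aligned reads to mm10 with Cell Ranger, version 6.0.1 in the methods and 6.1.1 in the file headers, and deposited filtered matrices of raw UMI counts for RNA and tags, which were used as deposited. The authors' own limits were applied, from 200 to 3000 genes detected and no more than 5% of UMIs from mitochondrial genes. Doublets were kept and marked cells were left out only as an alternative.

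UMI counts were summed per library over members or comparison cells and tested with edgeR 4.0.16 (quasi-likelihood, TMM, filterByExpr) in R 4.3.3, with Benjamini-Hochberg adjustment over all genes or 197 named tags (1 tag without a name was left out). Calls needed an adjusted p below 0.05 together with a 2-fold change in either direction (a log2 fold change of 1 in size). Levels are CPM, UMIs per 1000000 of the summed RNA or tag UMIs, before scaling by TMM. DESeq2 1.42.0 was an alternative. Coordinates are GENCODE's for GRCm38. Shares were compared by exact permutation over libraries.

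The members and gene lists were chosen with earlier results of these data known. Named genes were all genes of the lists, the 10 highest and 10 lowest called in members with a mean of at least 50 CPM and no overlap between groups, the 15 highest and 10 lowest ratios of members to comparison cells (by the library nearest to 0), and the 5 highest and 5 lowest differences of effects. Mitochondrial, ribosomal and receptor segment genes and the genes of the rule were left out of these rankings. A few listed genes are counted but not reported by name here. Leaving out cells of 10 or more myeloid UMIs and limiting tag counts per cell at the 99th percentile were chosen after seeing the data. On simulated counts for members (7405 genes), 37 of 100 genes changed 2-fold and 71 of 100 changed 4-fold were recovered. Recovery there meant an adjusted p under 0.05 in the right direction, without the 2-fold limit of a call. The simulation gave every gene the same dispersion and did not model single cells.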

Additional observations from a re-analysis of the deposited data

Results flagged for a closer look

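The effect of the knockdown differed between members and comparison cells by the interaction test (edgeR quasi-likelihood, Benjamini-Hochberg adjusted p under 0.05) for the genes below. They were taken by the fixed rule, except Ly6c2, which was added by name. On the log2 scale the difference, members minus comparison cells, was 6.61 for Ccl8, 4.04 for Cxcl9, 3.08 for Ccl2, 2.99 for Cxcl10, 2.93 for Xcl1 and 1.04 for Ly6c2. It was -2.34 for Ccl4, -1.62 for Ly6c1, -1.2 for Pdlim1 and -1.08 for Rflnb.

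Ccl8, Cxcl9 and Ccl2 were too low to be tested once cells with 10 or more myeloid UMIs were left out. Without those cells the difference was 3.38 for Cxcl10, 3.18 for Xcl1, 1.16 for Ly6c2 and -1.34 for Ly6c1, all still called. Over all the alternatives run, Xcl1 kept its call in 15 of 15 and Cxcl10 in 14 of 15, while Ly6c2 lost it in 9 of 16 (down to 0.17) and Ly6c1 in 6 of 15 (to -0.28). It was then -0.67 for Ccl4 (edgeR adjusted p = 0.898), -0.94 for Pdlim1 (edgeR adjusted p = 0.376) and -0.83 for Rflnb (edgeR adjusted p = 0.434). For Ccl4, 1 member of control library 1 held 164 of that library's 174 UMIs in members.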

How the results depend on the processing

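The log2 ratio of the members' share, knockdown over control, was -1.06 and kept its direction under every alternative run. It was -1.41 without cells of mixed lineage or with UMIs of other cell types, -1.24 with mitochondrial UMIs up to 10%, -1.37 with Ccl5 under 5, -1.79 with at least 2 UMIs each of Ifit1 and Ifit3, -0.61 with either gene, -0.93 thinned to 2000 UMIs, -1.85 over all kept CD3+ cells, -1.32 without cells of 10 or more myeloid UMIs and -1.24 with both of these last steps, thinning included. Leaving out 1 library gave -1.16 to -0.96. The difference in CD8 share of members was -3.71 points, 3.78 without myeloid cells, 19.5 with at least 2 UMIs of each gene and -14.2 to 6.73 without 1 library. The difference of the log2 ratio of non-effector to effector share was -0.32, -0.62 without myeloid cells, -0.0764 when thinned, and -0.47 to -0.17 without 1 library.

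Of the 201 genes called in members, the count became 99 without marked doublets, 67 without mixed cells, 79 with no upper gene limit, 121 with Ccl5 under 5, 46 with at least 2 UMIs each, 344 with either gene, 37 when thinned and 79 without myeloid cells. It was 135 with DESeq2, 301 with no filter on low counts, and without 1 library 106, 112, 191 and 295 (leaving out control 1, control 2, knockdown 1 and knockdown 2) or, without myeloid cells as well, 30, 33, 18 and 41. In comparison cells 511 became 332 with DESeq2 and 330 without myeloid cells (344 to 488 without 1 library), and over all non-effector cells 609 became 372 without myeloid cells (394 to 524). The 78 differences of effects became 6 with DESeq2, 17 without mixed cells, 10 with no upper gene limit, 32 with at least 2 UMIs each, 17 with either gene, 8 when thinned and 19 without myeloid cells (24 to 149). Tags of members against comparison cells went from 0 to 77 with no upper gene limit and stayed at 0 without any 1 library. The 13 tags called between groups became 29 with total tag scaling, 8 without myeloid cells and 7 when also limited per cell (12 to 17). The difference of effects reversed for Ccl4, to 0.65 with Ccl5 under 5 and 0.17 with either gene, and for Cxcl9, to -0.25 with either gene. The cause of these changes was not tested.

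Same-numbered libraries of the groups did not deviate together, so no pairing by number was assumed. The correlation was -0.0275 over members' genes, -0.367 over comparison cells and -0.375 over all non-effector cells. The cause of the negative values was not tested. With the replicate block the calls were 238 in members, 489 in comparison cells, 556 in all non-effector cells and 12 for tags in members. For members this design has 85 knockdown cells, and changes under 4-fold were often missed in simulated data. A single gene or tag kept its side of the threshold in 1204 checks, lost it in 228, gained it in 27 and reversed in 3.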
